A study of Mus musculus with 32 samples.

Results

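The genes described here are 10 genes of the brain endothelium and the blood-brain barrier, taken by name from the count table of the series: Cldn5, Ocln, Tjp1, Slc2a1, Pecam1, Flt1, Mfsd2a, Abcb1a, Cdh5 and Slco1c1. All 10 were found among the 23958 genes of the table, and all 10 were among the 12651 genes kept by the filter on low counts and tested. The study gave laboratory mice the gut microbiota of 1 of 3 primate donor species and measured RNA in the infralimbic and prelimbic frontal cortex: 12 mice received human microbiota, 8 received squirrel monkey (Saimiri boliviensis) microbiota and 12 received macaque (Macaca mulatta) microbiota. No group without primate microbiota was analysed here, so every comparison is between donor species. The labels used here state no strain, age or sex of the mice. The mice fell into 6 batches. Batches A and B held human, batches C and D held squirrel monkey and batches E and F held macaque recipients. Since each batch held a single donor species, donor species and batch cannot be told apart. The order of the batch means is given as a description only. The labels do not say which mice shared a donor, cage or litter, so p-values measure the spread between these mice only.

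The blood-brain barrier is formed by endothelial cells whose neighbouring membranes are sealed by tight junctions, and which carry out little vesicular transport. Nutrients and hormones therefore enter the cortex through dedicated carriers, and many lipid-soluble compounds are pumped back into the blood. In germ-free mice the barrier is known to be more permeable than in colonised mice. Among the members, Cldn5 and Ocln encode the tight-junction membrane proteins claudin 5 and occludin, and Tjp1 encodes ZO-1, the scaffold that links them to actin. Cdh5 (VE-cadherin) and Pecam1 (CD31) hold endothelial cells together at adherens and intercellular contacts. Slc2a1 encodes the glucose carrier GLUT1, Mfsd2a a carrier of lysolipids with docosahexaenoic acid that also restrains transcytosis, Slco1c1 the thyroxine carrier OATP1C1, and Abcb1a an efflux pump of the P-glycoprotein type. Flt1 encodes a receptor for vascular endothelial growth factor.

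In edgeR's quasi-likelihood test none of the 10 genes differed between donor groups at an adjusted p below 0.05 in any comparison, while DESeq2 called Pecam1 and limma voom called Pecam1 and Slc2a1 in 1 test each. The share of all genes called is set beside these counts below, for edgeR only. These 2 genes had the smallest p-values and are described first. Pecam1 was lowest in the macaque group, and Slc2a1 was highest in the squirrel monkey group. The junction genes Cldn5 and Ocln had lower mean levels in the squirrel monkey group, within a wide spread. Across the 32 mice Slc2a1 varied together with Flt1, and Cldn5 with Ocln, the second pair with an r of 0.07 within human mice. Levels are given in CPM, the gene's counts relative to the scaled total of its library, and fold changes as log2 differences with standard error (SE). The library is a 3′ tag library, so levels are compared between mice for 1 gene, not between genes. In bulk cortex, fewer endothelial cells and less RNA per endothelial cell cannot be told apart.

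The promoters of the 4 genes in these covarying pairs are shown here so that they can be compared. RefSeq promoters, 250 bases before to 50 bases after the transcript start, were matched by symbol for 8 of the 10 genes, on build GRCm38.p6; Pecam1 and Cdh5 had no match. Each is written 5′ to 3′ on the strand of the gene, with capitals for any match on either strand to GGAAG (a core of ETS factor sites) or ACGTG (a core of the hypoxia response element). The motif ACAAT (a SOX factor core) was also searched, and no match of one motif overlapped a match of another.
Slc2a1, chr4:119108495-119108794, plus strand: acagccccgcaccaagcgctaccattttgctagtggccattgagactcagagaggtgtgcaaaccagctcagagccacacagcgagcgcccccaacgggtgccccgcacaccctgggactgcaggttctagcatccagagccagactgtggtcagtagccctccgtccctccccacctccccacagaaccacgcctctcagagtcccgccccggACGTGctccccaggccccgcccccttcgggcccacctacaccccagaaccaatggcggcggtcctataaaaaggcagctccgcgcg
Flt1, chr5:147725962-147726261, minus strand: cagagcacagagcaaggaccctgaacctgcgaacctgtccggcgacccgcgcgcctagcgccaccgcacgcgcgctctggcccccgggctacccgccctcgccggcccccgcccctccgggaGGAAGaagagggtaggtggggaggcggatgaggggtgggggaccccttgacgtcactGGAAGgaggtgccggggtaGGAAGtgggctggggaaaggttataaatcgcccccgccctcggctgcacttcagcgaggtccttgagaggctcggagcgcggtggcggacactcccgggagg
Cldn5, chr16:18776597-18776896, plus strand: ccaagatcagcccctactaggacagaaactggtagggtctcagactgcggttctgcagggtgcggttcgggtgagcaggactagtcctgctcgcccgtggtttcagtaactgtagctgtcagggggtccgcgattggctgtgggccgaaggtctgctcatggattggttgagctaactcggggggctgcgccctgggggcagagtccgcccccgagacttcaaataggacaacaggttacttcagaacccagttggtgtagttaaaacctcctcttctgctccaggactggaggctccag
Ocln, chr13:100552669-100552968, minus strand: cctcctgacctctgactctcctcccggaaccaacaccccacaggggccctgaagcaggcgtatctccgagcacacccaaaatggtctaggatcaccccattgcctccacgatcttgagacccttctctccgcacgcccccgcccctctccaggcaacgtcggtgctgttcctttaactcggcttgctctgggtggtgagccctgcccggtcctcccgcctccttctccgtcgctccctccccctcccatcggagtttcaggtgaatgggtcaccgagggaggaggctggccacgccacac
The Slc2a1 window held 1 ACGTG, found in 19.62% of all 32851 promoter windows, and the Flt1 window held 3 GGAAG, found in 71.41% of them. The Cldn5 window and the Ocln window shown held none of the 3 motifs, and ACAAT, found in 31.02% of all windows, was in none of the members' windows. A second Ocln start lies close by and its window held 1 GGAAG. The genes of each pair thus shared none of these letters, which describes these windows only and says nothing of which factors act there.

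Pecam1, the adhesion molecule of endothelial contacts that platelets and leukocytes also carry, ranged from 21.8 to 39.4 CPM with a median of 30.2 in the macaque group. It ranged from 25.4 to 47.4 CPM with a median of 36.4 in the human group. In the squirrel monkey group it ranged from 29.1 to 47.9 CPM with a median of 38.3. The groups overlapped, but 10 of 12 human mice and 7 of 8 squirrel monkey mice lay above the macaque median. Mean Pecam1 was 36.5 ± 6.51 CPM (SD, n = 12) in the human group, 37.7 ± 6.17 CPM (SD, n = 8) in the squirrel monkey group and 29.9 ± 5.52 CPM (SD, n = 12) in the macaque group. Pecam1 was 0.29 (SE 0.11) log2 units higher in the human than in the macaque group, with an adjusted p of 0.0820 in edgeR's quasi-likelihood test. It was 0.33 (SE 0.12) higher in the squirrel monkey than in the macaque group, with an adjusted p of 0.199. Human and squirrel monkey mice differed by -0.04, with a 95% interval from -0.27 to 0.19. These comparisons share the macaque mice, so the first differences are not independent of each other. With the human and squirrel monkey groups weighted equally and set against the macaque group, Pecam1 was 0.31 (SE 0.10) higher, and its adjusted p of 0.0504 lay just above the threshold.

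That call for Pecam1 depended on the processing. In the comparison of both groups with macaque it passed at 0.05 in 15 of 49 alternatives, among them the DESeq2 test and limma voom, and its adjusted p ranged from 0.0127 to 0.448. Leaving out 1 mouse brought it past the threshold for human replicates 8, 10 and 11, squirrel monkey replicates 4 and 5 and macaque replicates 6, 7 and 8, at differences of 0.32 to 0.36. In human against macaque it passed in 5 of 50 alternatives, including the fit without batch B, where the difference was 0.49. By batch, mean Pecam1 ran from 26.6 CPM in E and 32.2 in F to 33.7 in B, 36.6 in C, 38.8 in D and 42.0 in A. Both macaque batches therefore lay below all 4 others, while B was close to F. The share of all genes ordered in this way was not determined, so nothing is read from this order. The human batches themselves differed, B being 0.32 log2 units (SE 0.14) below A at an unadjusted quasi-likelihood p of 0.0256 and an adjusted p of 0.369. Summed red blood cell transcripts, 5 genes, had medians of 91.9 CPM in the macaque group, 118 CPM in the human group and 124 CPM in the squirrel monkey group, the same order of groups as Pecam1. Summed oligodendrocyte transcripts, 6 genes, had medians of 872 CPM in the macaque, 1150 CPM in the human and 1671 CPM in the squirrel monkey group. Endothelial identity genes had medians in the same order, at 373, 399 and 438 CPM. So had the pericyte, smooth muscle, fibroblast and vascular growth lists, but not the astrocyte, microglia, neuron and choroid plexus lists. Other vascular lists did not have this order either: other junction genes, other barrier transporters, Wnt signalling, transcytosis and basement membrane. Basement membrane genes had medians of 121 CPM in macaque, 120 CPM in human and 113 CPM in squirrel monkey mice. The part of these lists in the Pecam1 values was not tested beyond 2 fits with a score as covariate. With the oligodendrocyte score the any-group adjusted p of Pecam1 was 0.356 in the quasi-likelihood test. With the endothelial identity score it was 0.0928, and Pecam1 passed in both groups against macaque.

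Slc2a1, the glucose carrier of the barrier, ranged from 59.5 to 128 CPM with a median of 80.5 in the macaque group and from 58.5 to 130 CPM with a median of 76.4 in the human group. In the squirrel monkey group it ranged from 75.1 to 155 CPM with a median of 120. The 3 ranges overlapped, and 6 of 8 squirrel monkey mice lay above the macaque median. Mean Slc2a1 was 114 ± 30.5 CPM (SD, n = 8) in the squirrel monkey group, 86.6 ± 25.2 CPM (SD, n = 12) in the macaque group and 80.7 ± 19.7 CPM (SD, n = 12) in the human group. It was 0.50 (SE 0.15) log2 units lower in human than in squirrel monkey mice, with an adjusted p of 0.183. It was 0.40 (SE 0.15) higher in squirrel monkey than in macaque mice, with an adjusted p of 0.241. Human and macaque mice differed by -0.10, with a 95% interval from -0.38 to 0.19. In the test for any difference among the 3 groups its adjusted p was 0.0821, against 0.104 for Pecam1. It passed there in limma voom (0.0194), with batch as 6 levels (0.0216), without batch B (0.0475) or F (0.0216), and without human replicate 12 (0.0239) or squirrel monkey replicate 4 (0.0415), while without batch D it was 0.579.

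Slc2a1 also differed between batches of the same species. The second batch was higher each time: 85.9 CPM in B against 70.3 in A, 128 in D against 99.2 in C, and 99.98 in F against 67.9 in E. The macaque difference of 0.56 log2 units (SE 0.18) had an unadjusted quasi-likelihood p of 0.0041 and an adjusted p of 0.9999. Batch F therefore overlapped batch C, and the squirrel monkey batches did not both lie above the macaque batches, although both lay above the human batches. In the GENCODE M21 annotation the 3′ end of Slc2a1 lies under an antisense gene, Gm12868, which is not a row of the count table. Whether the counting used strand is not given, so the Slc2a1 counts are uncertain in that respect. Tjp1, Abcb1a and Cdh5 each overlap 1 gene on the other strand as well, away from their 3′ ends.

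**Figure D1:**
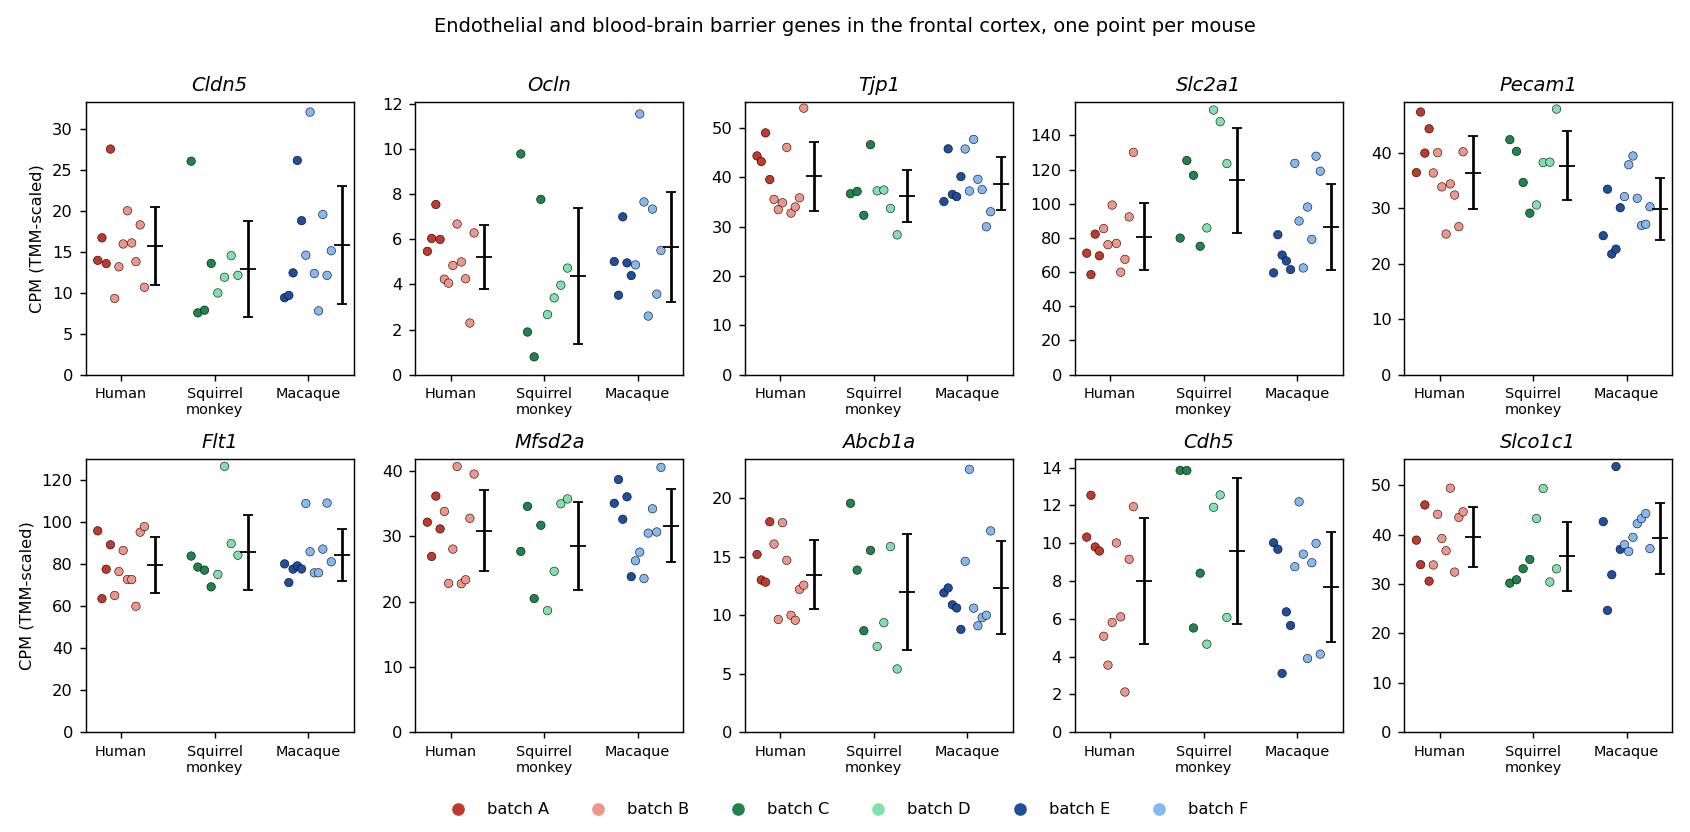
CPM of each of the 10 genes (vertical axes, from 0) in every mouse, grouped by donor species and coloured by batch, with the group mean and SD as a bar to the right of each group. For Pecam1 the macaque mice reach from 21.8 to 39.4 CPM and overlap the other groups, and for Slc2a1 the highest mouse, at 155 CPM, is in the squirrel monkey group.

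Of the tight-junction genes, Cldn5 ranged from 7.79 to 32.1 CPM (median 13.5) in macaque mice, from 9.31 to 27.6 CPM (median 14.97) in human mice and from 7.55 to 26.1 CPM (median 12.0) in squirrel monkey mice. The groups overlapped throughout, and 3 of 8 squirrel monkey mice lay above the macaque median. Cldn5 differed by -0.01 (SE 0.20) between human and macaque mice and by -0.31 (SE 0.24) between squirrel monkey and macaque mice, with adjusted p-values of 0.989 and 0.622. Its 95% interval in the latter ran from -0.79 to 0.17, and thus down to 0.578-fold.

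Ocln, the other tight-junction membrane protein, was counted least of all, with 1 to 18 counts per mouse. It ranged from 2.60 to 11.6 CPM (median 4.98) in macaque mice, from 2.29 to 7.54 CPM (median 5.23) in human mice and from 0.788 to 9.78 CPM (median 3.68) in squirrel monkey mice. Here 2 of 8 squirrel monkey mice lay above the macaque median, and the lowest value, from 1 count, was also a squirrel monkey mouse. Ocln differed by -0.13 (SE 0.24) between human and macaque mice and by -0.39 (SE 0.29) between squirrel monkey and macaque mice, with adjusted p-values of 0.807 and 0.609.

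Tjp1, the scaffold beneath the junction, was steadier, with a coefficient of variation of 15.6% over all 32 mice against 39.8% for Cldn5 and 43.8% for Ocln. Its medians were 37.4 CPM in macaque, 37.7 CPM in human and 36.9 CPM in squirrel monkey mice, and the ranges overlapped. Tjp1 differed by 0.05 (SE 0.09) between human and macaque mice and by -0.09 (SE 0.11) between squirrel monkey and macaque mice. Cldn5, Tjp1 and Mfsd2a had both squirrel monkey batch means below both macaque batch means, while Pecam1 and Cdh5 had both above. None of these genes passed in that comparison. The share of all genes separated in this way was not determined, so nothing is read from these orders.

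Cdh5, the endothelial cadherin, had medians of 8.87 CPM in macaque, 9.37 CPM in human and 10.2 CPM in squirrel monkey mice, from 4 to 27 counts per mouse. Its ranges, from 3.11 to 12.2, from 2.12 to 12.5 and from 4.66 to 13.9 CPM in that order, overlapped almost entirely. Cdh5 was 0.32 (SE 0.27) higher in squirrel monkey than in macaque mice at an adjusted p of 0.669, and differed by 0.05 (SE 0.24) between human and macaque mice. Within the human group, batch B averaged 6.72 CPM and batch A 10.6 CPM, a difference of -0.69 (SE 0.33) at an unadjusted quasi-likelihood p of 0.0442 and an adjusted p of 0.418.

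The carriers other than Slc2a1 were close to level across donors. Mfsd2a had medians of 31.7 CPM in macaque, 31.7 CPM in human and 29.7 CPM in squirrel monkey mice. It differed by -0.05 (SE 0.12) between human and macaque mice and by -0.13 (SE 0.13) between squirrel monkey and macaque mice. Slco1c1, the thyroxine carrier, had medians of 38.7, 39.0 and 33.1 CPM in macaque, human and squirrel monkey mice, with 2 of 8 squirrel monkey mice above the macaque median. Slco1c1 differed by 0.00 (SE 0.11) between human and macaque mice, with a 95% interval from -0.22 to 0.22, and by -0.15 (SE 0.11) between squirrel monkey and macaque mice. Abcb1a, the efflux pump, had medians of 10.8, 12.9 and 11.6 CPM in the same order and ranged from 5.40 to 22.5 CPM over all mice. Abcb1a differed by 0.12 (SE 0.17) between human and macaque mice and by -0.05 (SE 0.20) between squirrel monkey and macaque mice. Its last 300 bases had no near copy in another gene's transcripts, at 95% identity over 100 bases or more, and the same held for the other 9 genes.

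Flt1, the growth factor receptor, had medians of 79.7 CPM in macaque, 77.1 CPM in human and 81.3 CPM in squirrel monkey mice, with ranges of 71.3 to 109, 60.0 to 98.0 and 69.3 to 127 CPM. The ranges overlapped and the medians lay within the spread of each group. Flt1 differed by -0.08 (SE 0.09) between human and macaque mice and by 0.02 (SE 0.10) between squirrel monkey and macaque mice, with adjusted p-values of 0.647 and 0.956.

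Counted over the 10 genes, edgeR called 0 in human against macaque, where 8.01% of all tested genes were called, and 1 had an unadjusted p below 0.05, as did 23.1% of all tested genes. It called 0 in squirrel monkey against macaque, where 0.64% of genes were called, with 2 below 0.05 unadjusted (13.2% of all genes), and 0 in human against squirrel monkey, where 0.134% were called, with 1 below 0.05 unadjusted (10% of all genes). With human and squirrel monkey together against macaque it called 0, against 5.51% of all genes, with 1 below 0.05 unadjusted (20.6% of all genes), and DESeq2 and limma voom each called 1, Pecam1. In the test for any difference edgeR called 0 and DESeq2 0, against 6.15% of genes in edgeR, while limma voom called 1, Slc2a1. In the 3 comparisons of single groups DESeq2 and limma voom called 0 of the 10. The shares given here are edgeR's. Those of DESeq2 and limma voom are not set beside their calls, so nothing is read from the number of these calls. The median log2 difference over the 10 genes was 0.00 in human against macaque and -0.07 in squirrel monkey against macaque, where the median over all tested genes was 0.00 in both.

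The intervals come from a fit that took each mouse as independent and had no term for batch. They describe the spread between these mice only. Since batches lie within donor species, the intervals do not bound the difference between donor species that could have been missed. For human against macaque, 9 of the 10 intervals lay within a 1.5-fold change in either direction, Ocln being the exception. For squirrel monkey against macaque, 6 of 10 did, and those of Cldn5, Ocln, Slc2a1 and Cdh5 reached further. The median absolute log2 difference over the 10 genes was 0.07 in the first comparison and 0.23 in the second, against 0.12 and 0.11 over all tested genes.

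**Figure D2:**
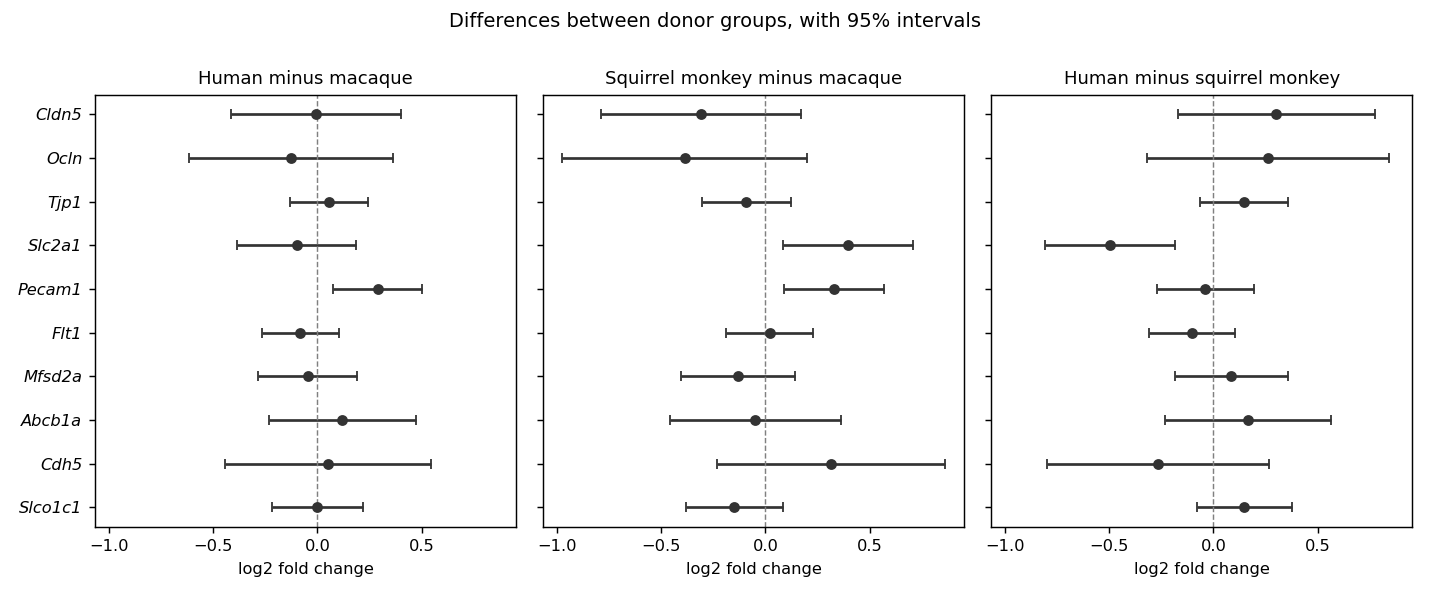
Log2 fold change (horizontal axis) of each gene in the 3 comparisons of donor groups, as points with 95% intervals. The intervals of Pecam1 against macaque and of Slc2a1 in the comparisons with squirrel monkey lie off 0 before adjustment, and every adjusted p is 0.0820 or more.

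Between batches of the same species, 0 of the 10 genes passed in edgeR, the one tool run on them, where 0.0237% of all genes did between the human batches and 0% between the squirrel monkey and between the macaque batches. At an unadjusted p below 0.05, 1473 of all tested genes differed between the human batches, 883 between the squirrel monkey batches and 399 between the macaque batches. The sizes were of the same order as those between donors: Slc2a1 differed by 0.56 between macaque batches and by -0.50 between human and squirrel monkey mice.

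**Figure D3:**
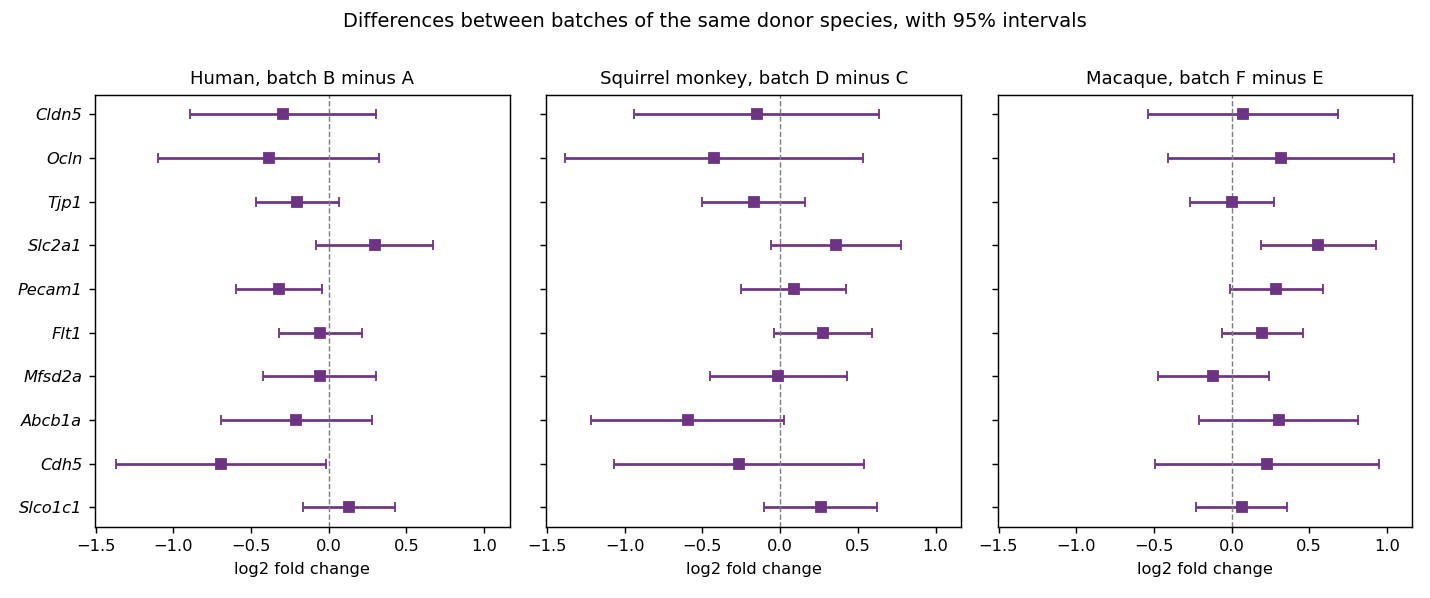
Log2 fold change (horizontal axis) of each gene between the batches of 1 donor species, as squares with 95% intervals. Slc2a1 lies to the right of 0 in all 3 panels, at 0.29, 0.36 and 0.56, and Cdh5 is lowest in the human panel at -0.69.

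Whether the members vary together was asked across the 32 mice, on log2 CPM with the donor group means removed. Of 45 pairs, 33 had a positive Pearson r, the median r was 0.13, and 2 pairs passed a permutation test adjusted over the 45. Slc2a1 and Flt1 had r = 0.63 (permutation adjusted p = 0.0031) and Spearman rho = 0.57. Their r was 0.57 within human, 0.69 within squirrel monkey and 0.67 within macaque mice, and 0.55 without the 2 mice farthest from the median of Slc2a1. With batch means removed as well, r was 0.60 and no longer passed the adjusted permutation test.

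Cldn5 and Ocln had r = 0.60 (permutation adjusted p = 0.0137) and rho = 0.52 (permutation adjusted p = 0.0598). Their r was 0.07 within human mice, 0.89 within squirrel monkey mice and 0.65 within macaque mice, and it was 0.41 without the 2 mice farthest from the median of Cldn5. The relation rested partly on single mice, since without squirrel monkey replicate 1 (r = 0.51) or macaque replicate 7 (r = 0.53) it no longer passed. Whether r differs between donor groups was not tested.

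**Figure D4:**
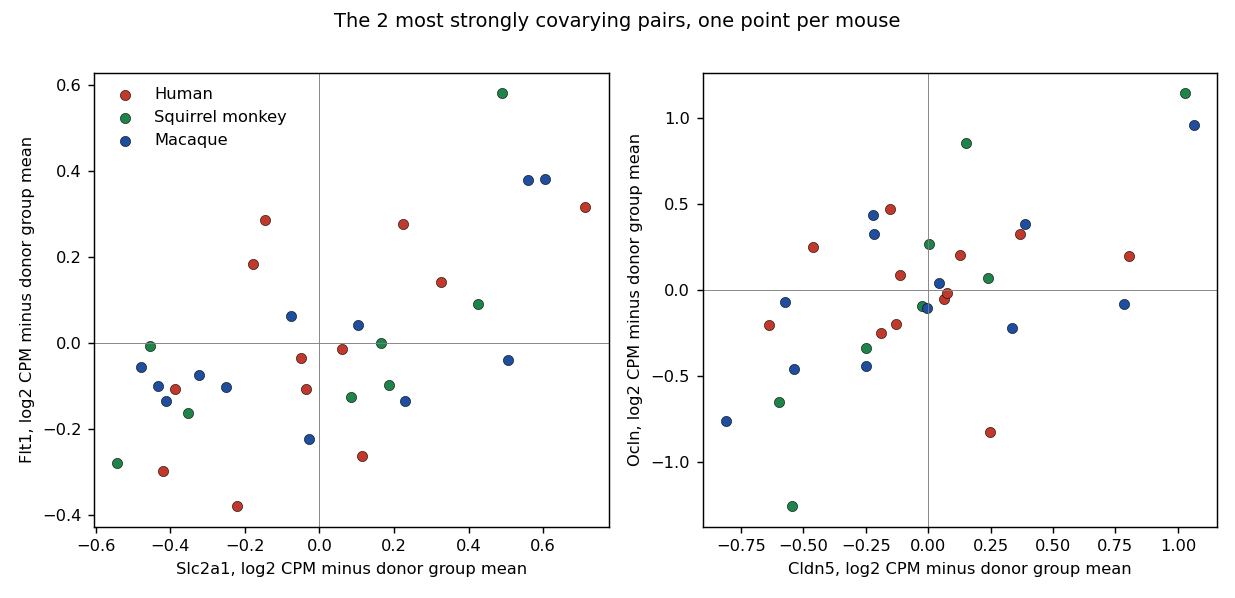
Log2 CPM minus the donor group mean for Slc2a1 against Flt1 (left) and Cldn5 against Ocln (right), 1 point per mouse coloured by donor. Mice high in Slc2a1 tend to be high in Flt1 in each group (r = 0.63 over 32 mice), and in the right panel 2 mice, 1 squirrel monkey and 1 macaque, lie far to the upper right.

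The members did not vary as a single block. Cdh5 correlated best with the mean of the other 9 members (r = 0.64), followed by Abcb1a (0.53) and Ocln (0.45), while Slc2a1 (0.07) and Slco1c1 (-0.11) stood apart, all over 32 mice. Against scores of 7 cell type lists, 15 of 70 relations passed a permutation test adjusted over the 70. Cdh5, Cldn5, Abcb1a and Flt1 followed the endothelial identity score, which contains none of the members, at r of 0.57, 0.56, 0.56 and 0.53 (permutation adjusted p between 0.0108 and 0.0134). For Cldn5 the Spearman rho was 0.45 (permutation adjusted p = 0.0541), and r was 0.40 without the 2 mice farthest from the median of that score. Cdh5, Abcb1a and Flt1 also passed with the pericyte and the astrocyte score. For Flt1 these r, 0.58 and 0.57, were higher than that with the endothelial score. Mfsd2a followed the astrocyte score (r = 0.55) and the fibroblast and meninges score (r = 0.51) and not, at this threshold, the endothelial one (r = 0.21). Slc2a1 followed the pericyte score (r = 0.51, permutation adjusted p = 0.0228). Cdh5 and Abcb1a had their highest r with the fibroblast and meninges score (0.66 and 0.63), and the part of meningeal tissue in their spread was not tested. Slco1c1, Tjp1, Ocln and Pecam1 followed none of the 7 scores at this threshold. The r of Pecam1 with the endothelial score was 0.44 (permutation adjusted p = 0.0567).

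**Figure D5:**
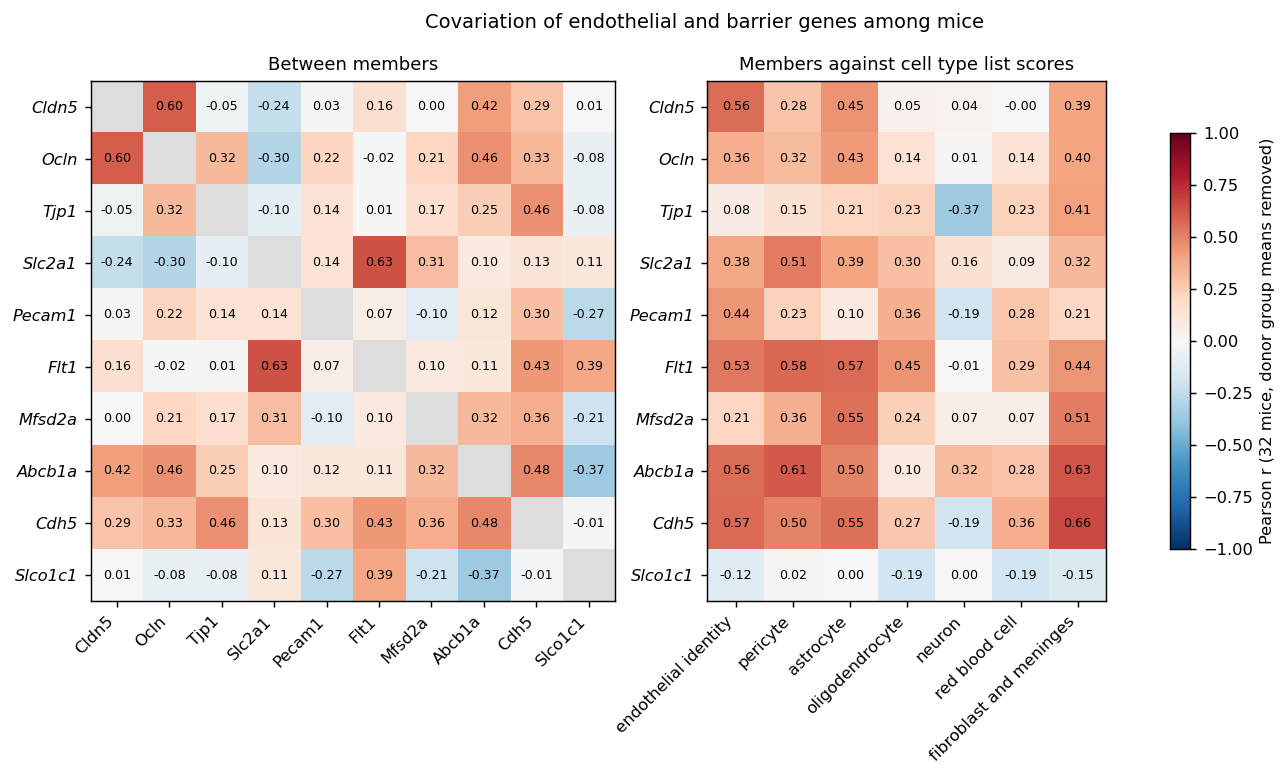
Pearson r across 32 mice, donor group means removed, between the 10 genes (left) and between each gene and 7 cell type list scores (right); red is positive, blue negative, on a scale from -1 to 1. The deepest red among the members is Slc2a1 with Flt1 at 0.63, and the Slco1c1 row is pale throughout the right panel.

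Over all 12586 eligible genes, those most like the mean of the 10 members across the 32 mice were Ahnak (r = 0.86), Col1a2, the chain of type I collagen made by fibroblasts (0.82), C4b (0.80), Serpinf1 (0.79), Gjb2 (0.79) and Cavin1, a coat protein of caveolae (0.79). They were followed by Itih5 (0.79), Aebp1 (0.78), Aldh1l1, an astrocyte enzyme (0.78), and Dbi (0.78). None of these 10 was called in edgeR's any-group test, where 6.15% of all tested genes were, so nothing is read from that count. The smallest adjusted p was 0.296, for Gjb2.

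The other genes of the vessel wall came from lists of the pathway. Their calls in human against macaque are to be read beside the 8.01% of all tested genes called there. Of 18 tested endothelial identity genes, 1 rose in human mice: Ly6c1, a surface protein of brain endothelium and of monocytes, by 0.40 (adjusted p 0.0425), from 38.3 ± 6.90 CPM (SD, n = 12) to 50.2 ± 12.1 CPM (SD, n = 12). The list's median log2 difference was -0.05, against 0.00 over all genes. Ly6c1 passed in 28 of 50 alternatives, with adjusted p from 0.00525 to 0.290, and the call was lost when 1 mouse was left out from human replicates 1, 2, 4, 7, 8, 9 and 12, or likewise from replicates 1, 2, 4, 5, 9, 11 and 12 of the macaque group. It was also lost with no filter, under limma voom, with library total or the oligodendrocyte score as covariate, and without batch A, C, E or F. Kdr, the main growth factor receptor of endothelium, was 0.53 lower in squirrel monkey than in macaque mice at an adjusted p of 0.283, and did not pass. Adgrl4 of the same list, with a smaller any-group p, was 0.36 higher in that comparison at an adjusted p of 0.480, and did not pass either. Of 11 tested other junction genes, 1 rose in human mice, Jam3, a junctional adhesion molecule, by 0.35 (adjusted p 0.0206), with a list median of -0.10. Jam3 passed in 45 of 50 alternatives, among them all 32 that leave out 1 mouse, and not without batch A, E or F, with counts summed per batch or with the oligodendrocyte score as covariate.

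Of 14 tested other barrier transporters, 2 rose in human against macaque mice, where 8.01% of all genes were called, and none fell. The list median was -0.11. Bsg, basigin, the partner of lactate carriers that many cortical cells express, rose by 0.21 (adjusted p 0.0178), from 360 ± 34.4 to 417 ± 30.6 CPM (SD, n = 12 each). Slc7a5, the large neutral amino acid carrier, rose by 0.66 (adjusted p 0.0354), from 25.8 ± 7.30 to 40.7 ± 18.3 CPM (SD, n = 12 each). Bsg passed in 46 of 50 alternatives, all 32 that leave out 1 mouse among them, and not without batch B, E or F or with counts summed per batch. Slc7a5 passed in 39 of 50, and not under limma voom, with library total or the oligodendrocyte score as covariate, or without batch A or F, human replicate 4 or 6, or macaque replicate 8, 9, 10 or 11. Slco1a4, an organic anion carrier of brain endothelium, differed among the 3 groups (adjusted p 0.0400), with means of 38.9 CPM in macaque, 35.2 CPM in human and 25.7 CPM in squirrel monkey mice. Its difference of -0.59 in squirrel monkey against macaque mice had an adjusted p of 0.0622 and did not pass. The any-group call of Slco1a4 held in 29 of 49 alternatives and in 18 of the 32 that leave out 1 mouse, with adjusted p from 0.00831 to 0.269, and was lost under limma voom, with counts summed per batch and without batch A, C, D or F.

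In squirrel monkey against macaque mice, 0 genes of these 3 lists passed in edgeR, where 0.64% of all genes did. Below an unadjusted p of 0.05 were 3, 1 and 2 of them, and 13.2% of all genes. No tested gene passed in either comparison with macaque among 8 genes of vascular growth signalling, 12 of Wnt signalling to brain endothelium, 5 of transcytosis and fenestration, 5 of vascular basement membrane, 7 of pericytes and 4 of smooth muscle. That count is edgeR's, the one tool run on whole lists, and in each comparison at most 2 genes of any of these lists had an unadjusted p below 0.05. All 5 basement membrane genes were lower in both groups than in macaque mice, with medians of -0.27 and -0.23, for instance Col4a2, a type IV collagen chain, at -0.27 (adjusted p 0.253) and -0.32 (adjusted p 0.416). All 4 smooth muscle genes were higher, with medians of 0.52 and 0.58, for instance Acta2, smooth muscle actin, at 0.69 (adjusted p 0.253) and 0.58 (adjusted p 0.582).

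Among other cell types the tissue holds, no astrocyte gene (7 tested), microglia gene (6), choroid plexus gene (2) or red blood cell gene (4) passed in these 2 comparisons in edgeR, with at most 4 of a list, the red blood cell genes in squirrel monkey mice, below an unadjusted p of 0.05. Of 6 neuronal genes, Slc17a7 rose by 0.25 (adjusted p 0.0163) and Syt1 fell by 0.17 (adjusted p 0.0418) in human against macaque mice. Of 6 oligodendrocyte genes, Mal and Mog rose there, by 1.25 (adjusted p 0.0450) and 1.43 (adjusted p 0.0481). All 6 were higher there at an unadjusted p below 0.05 (23.1% of all genes had such a p), with a list median of 1.19. In squirrel monkey against macaque mice all 6 were also higher, 4 of them below 0.05 (13.2% of all genes), with a median of 0.99. Mal passed in 28, Mog in 23 and Syt1 in 26 of 50 alternatives, and Slc17a7 in 44. Of 5 fibroblast and meninges genes, Igf2, an imprinted growth factor also made by the choroid plexus, rose in both, by 0.99 (adjusted p 0.0273) and 1.47 (adjusted p 0.0132). Igf2 averaged 5.90 CPM. Its human call passed in 40 of 49 alternatives, and not under limma voom, summed per batch or with the oligodendrocyte score. Leaving out batch A, E or F or human replicate 1, 4 or 7 lost it too. Its squirrel monkey call passed in 42 of 48, and not with that score or without batch C, D, E or F or squirrel monkey replicate 2. Apart from 1 vascular growth gene without a count in the squirrel monkey group, every listed gene had counts in each group. The endothelial identity genes summed to between 295 and 557 CPM in every mouse.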

How the data were processed

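TagSeq, a 3′ tag-based RNA-seq read as single 100-base reads, was run on frontal cortex RNA of 32 mice, per the labels' protocols. The deposited table holds raw counts per Ensembl gene, made by the authors on build GRCm39 per the submitters' processing notes; the aligner, the counter, the annotation and any use of strand were not given in the sources used here. Another 3 columns of counts matched no sample and were not used. Symbols came from a reference table, which left 76 rows (0.031% of counts) without one. Each mouse had 1035040 to 2089310 counts, so a gene at a few CPM rests on fewer than about 20 counts.

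Genes were filtered with filterByExpr (at least 10 counts, total 15), scaled by TMM (factors 0.955 to 1.04) and tested with edgeR 4.0.16's quasi-likelihood test on all 32 mice, with Benjamini-Hochberg adjustment over 12651 genes and a threshold of 0.05; DESeq2 1.42.0 and limma 3.58.1 were alternatives. Any-group, between-group and between-batch comparisons were fitted. Log2 CPM used a prior count of 2. Correlations used 100000 permutations. The edgeR step was tested on simulated data. The 10 members and 16 other lists were chosen with earlier results of these data known. Named genes were all members and some of the 3 genes of each list with the smallest any-group p. The 10 genes with the highest r to the member mean were named as well, and some genes most like single members. No 2 libraries were identical: over 160 pairs of the same group, chi-square per degree of freedom was 1.45 to 7.78. Overlaps were read from GENCODE M21, on another build than the counts.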

Additional observations from a re-analysis of the deposited data

Results flagged for a closer look

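In all, 70 groups of 4 to 8 mice were tested for a single value far from the rest. Of them, 3 were flagged, close to the 1 in 20 that chance gives. The squirrel monkey group consists of batches C and D, which were tested too, so these groups are not all separate. In the squirrel monkey group, replicate 1 had 26.1 CPM of Cldn5, where the next mouse had 14.5 CPM. In the same group, replicate 6 had 127 CPM of Flt1, where the next mouse had 89.9 CPM. In macaque batch E, replicate 2 had 71.3 CPM of Flt1, below the next mouse at 77.7 CPM.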

How the results depend on the processing

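No paired analysis was possible because the replicate numbers were given in accession order and the labels pair no mice. Of 1950 recomputed differences of members none changed sign while passing, and 93 changed sign without passing in either fit. Pecam1 was the 1 member called in both groups against macaque under library totals, DESeq2 size factors, DESeq2, limma voom, batch as 6 levels, the endothelial score as covariate and without batch B, and in human against macaque under batch as 6 levels and without batch B. In the any-group test Slc2a1 was the 1 member called under limma voom and without batch F, and Slc2a1 with Pecam1 made 2 under batch as 6 levels and without batch B. Leaving out 1 mouse gave 0 to 1 members in each of these 3.

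Counts over all genes moved more. Human against macaque, with 1013 genes, gave 506 with counts summed per batch, 574 with library total as covariate, 472 without batch A, 390 without E and 337 without F. Squirrel monkey against macaque, with 81, gave 154 under DESeq2, 292 under voom, 203 summed per batch, 25 with the oligodendrocyte score, 178 with only the groups compared, 151 without B, 2 without C, 10 without E and 0 without F, and 28 to 131 leaving out 1 mouse. Human against squirrel monkey, with 17, gave 1 with no filter, 89 under DESeq2, 80 under voom, 46 with batch as 6 levels, 1 summed per batch, 1 with library total, 27 with the oligodendrocyte score, 3 with only the groups compared, 3 without A, 58 without B, 63 without C, 1 without D and 2 without E, and 2 to 67 leaving out 1 mouse. Both groups against macaque, with 697, gave 317 with the oligodendrocyte score, 445 without A, 206 without C, 172 without E and 73 without F. The any-group test, with 778, gave 420 summed per batch, 415 with library total, 379 without A, 268 without E and 231 without F. Human batch B against A, with 3, gave 0 under library totals and 6 with no filter. The 2 covarying pairs became 0 with batch means removed or within the human, squirrel monkey or macaque mice alone, and 1 to 4 leaving out 1 mouse. Of the other named genes none changed sign while passing. The causes were not tested. Ocln and Cdh5 rest on few counts, at 1 to 18 and 4 to 27 per mouse.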

Other observations

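The genes that varied most like Slc2a1 across the 32 mice, with donor group means removed and picked from 12586 genes after their values were seen, were Akap12, a scaffold of kinase signalling (r = 0.90), Nfkbia, an inhibitor of NF-kappa B (0.87), Nes, nestin (0.86), Nostrin (0.83) and Arl4d (0.82). The r of Slc2a1 with Akap12 was 0.88 within human, 0.90 within squirrel monkey and 0.92 within macaque mice, and 0.87 with batch means removed. Like Slc2a1, Akap12 had its highest mean in the squirrel monkey group, 55.0 ± 25.9 CPM (SD, n = 8), against 31.1 ± 10.8 in human and 27.3 ± 14.4 in macaque mice (SD, n = 12 each). Akap12 rose by 1.03 (SE 0.25) in squirrel monkey against macaque mice with an adjusted p of 0.0370 in edgeR's quasi-likelihood test, and passed in 34 of 50 alternatives (adjusted p 0.00816 to 0.361). The call was lost without batch C, D, E or F and with the oligodendrocyte score as covariate. It held in 21 of the 32 alternatives that leave out 1 mouse. Nfkbia, at 0.52 (adjusted p 0.256), and Nes, at 0.23 (adjusted p 0.801), did not pass in that comparison.

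Pecam1 varied most like Cd84, an adhesion receptor of blood and immune cells (r = 0.81), at 0.72 within human, 0.89 within squirrel monkey and 0.88 within macaque mice. Cldn5 varied most like Hebp1 (r = 0.68) and Apcdd1, an inhibitor of Wnt signalling (0.67). The r of Cldn5 with Apcdd1 was 0.68 in human, 0.63 in squirrel monkey and 0.70 in macaque mice. Being the highest of many, these values are likely to overstate the likeness to be found in other mice.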
